A study of Rattus norvegicus with 4 samples.

Results

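The genes described here are cell cycle genes of rat PC12 cells, 32 that act in the start of S phase and DNA replication and 28 that act in mitosis. PC12 is a line derived from a pheochromocytoma, a tumour of the adrenal chromaffin cells. RNA was taken from cells transfected with a plasmid that codes for MAX and from cells transfected with an empty vector, both after drug selection, and each line was sampled at passages 8 and 13 (2 one-colour Agilent arrays per group). The labels do not say which replicate is which passage, and each group is 1 transfected line, so p-values measure the spread between samples of a line and not between transfections. MAX is the partner through which MYC proteins bind DNA, and a working copy of it is known to be missing from PC12, so the comparison asks what the MAX plasmid changes in these cells. The members were found by the RefSeq accession of each probe, which named 26 of the 60 listed genes: 14 of 32 replication genes and 12 of 28 mitosis genes, through 33 probes. Among the 34 genes that no named probe covers are Mcm2 to Mcm6, Cdc6, E2f1, Ccne1, Top2a and Mki67, which were not analysed here.

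Cells copy DNA once per cycle and then divide it. Cyclin E with Cdk2 starts S phase, the origin recognition complex and the MCM helicase mark and open origins, and polymerases held by the PCNA sliding clamp copy the strands. Cyclin B with Cdk1 then drives entry into mitosis, Polo and Aurora kinases build the spindle, and Cdc20 with the anaphase promoting complex ends it. Transcription of the replication genes is known to depend largely on E2F factors, whereas that of the mitosis genes is known to depend on the cell cycle homology region (CHR), bound by the DREAM and MYB complexes, and on CCAAT boxes bound by NF-Y. The E-box CACGTG is the sequence that MYC and MAX bind as a pair.

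The promoters of 6 members are shown as examples. They are Plk1 and Cdc25b, the mitosis genes with the smallest p-values, Cdk1, and the replication genes Mcm7, Rfc3 and Fen1. Plk1 and Cdc25b hold CHR and CCAAT matches, Cdk1, Mcm7 and Rfc3 hold E2F matches as well, and Fen1 holds only an E-box. Mcm7 and Rfc3 do not stand for the replication genes, of which 3 of 13 with a promoter hold a CHR match. Each promoter shown runs 5′ to 3′ over 300 bases, from 250 before to 50 after the start site in the RefSeq table of build GRCr8. Capitals mark every match, on either strand, to the CHR (TTTGAA or TTCGAA), the CCAAT box (CCAAT), the E2F motif (TTTCCCGC, TTTGGCGC, TTTCGCGC or TTTGCCGC) and the E-box (CACGTG). In Mcm7, 1 E2F match and 1 CCAAT match share bases. Plk1 lies at chr1:186147408-186147707, plus strand, Cdc25b at chr3:138859923-138860222, plus strand, Cdk1 at chr20:19265043-19265342, plus strand, Mcm7 at chr12:22163129-22163428, minus strand, Rfc3 at chr12:5836318-5836617, plus strand, and Fen1 at chr1:216274347-216274646, minus strand.
Plk1: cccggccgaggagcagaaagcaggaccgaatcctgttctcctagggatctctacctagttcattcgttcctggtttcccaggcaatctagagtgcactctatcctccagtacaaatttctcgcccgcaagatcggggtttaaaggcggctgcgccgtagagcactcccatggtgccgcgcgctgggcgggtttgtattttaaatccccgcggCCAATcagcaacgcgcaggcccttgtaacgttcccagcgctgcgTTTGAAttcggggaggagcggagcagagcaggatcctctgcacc
Cdc25b: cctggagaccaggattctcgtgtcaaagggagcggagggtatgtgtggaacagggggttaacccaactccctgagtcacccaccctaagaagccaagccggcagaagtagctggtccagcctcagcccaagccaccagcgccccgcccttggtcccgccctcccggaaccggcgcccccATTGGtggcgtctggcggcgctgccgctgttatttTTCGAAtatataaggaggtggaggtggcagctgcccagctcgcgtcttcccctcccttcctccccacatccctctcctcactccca
Cdk1: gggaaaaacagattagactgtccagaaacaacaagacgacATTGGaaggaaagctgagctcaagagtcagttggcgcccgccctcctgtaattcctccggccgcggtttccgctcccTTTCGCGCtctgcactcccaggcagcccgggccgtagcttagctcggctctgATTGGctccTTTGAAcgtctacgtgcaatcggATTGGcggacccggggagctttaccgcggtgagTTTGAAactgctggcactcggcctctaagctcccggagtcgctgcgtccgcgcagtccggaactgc
Mcm7: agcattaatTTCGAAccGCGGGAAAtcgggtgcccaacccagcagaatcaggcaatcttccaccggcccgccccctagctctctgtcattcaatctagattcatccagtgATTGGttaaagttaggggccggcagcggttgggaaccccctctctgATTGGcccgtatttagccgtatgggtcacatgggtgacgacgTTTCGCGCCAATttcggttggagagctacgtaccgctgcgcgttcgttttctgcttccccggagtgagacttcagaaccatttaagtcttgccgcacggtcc
Rfc3: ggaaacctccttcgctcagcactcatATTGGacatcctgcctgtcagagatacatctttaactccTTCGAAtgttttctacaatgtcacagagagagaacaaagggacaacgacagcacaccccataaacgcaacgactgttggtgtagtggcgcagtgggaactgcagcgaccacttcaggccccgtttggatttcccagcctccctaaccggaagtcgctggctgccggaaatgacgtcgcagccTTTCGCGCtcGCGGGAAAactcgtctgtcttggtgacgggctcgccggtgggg
Fen1: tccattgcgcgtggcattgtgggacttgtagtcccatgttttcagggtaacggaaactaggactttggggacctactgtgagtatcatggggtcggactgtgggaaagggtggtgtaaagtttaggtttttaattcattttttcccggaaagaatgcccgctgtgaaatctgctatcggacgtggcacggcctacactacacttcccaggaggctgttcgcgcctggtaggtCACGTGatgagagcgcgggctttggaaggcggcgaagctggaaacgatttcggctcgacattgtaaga

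Of the 26 measured members, 23 had a promoter in that table, 10 of mitosis and 13 of replication. Kif2c had 2 start sites, and a gene counted as holding a motif where any of its start sites did. A CHR match stood in 7 of the 10 mitosis promoters (Birc5, Ccnb2, Cdc20, Cdc25b, Cdk1, Plk1 and Pttg1) and in 3 of the 13 replication promoters, against 21.0% of the 27457 genes in the table. The E2F motif stood in 1 of 10 mitosis promoters (Cdk1) and in 6 of 13 replication promoters (Cdc25a, Lig1, Mcm7, Rfc3, Rpa2 and Ung), against 2.37% of all genes. CCAAT was found in 8 of 10 mitosis and 10 of 13 replication promoters, against 39.6% of all. The E-box was found in 0 of 10 mitosis promoters and in 2 of 13 replication promoters (Fen1 and Ung), against 7.08% of all. Such matches describe letters in a window and do not show binding.

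Signals are given on the log2 scale relative to the 75th percentile of all probes of the same array, so a difference of 1 is a factor of 2-fold on the linear scale, and levels of different probes are not compared. All 26 members were well above background on all 4 arrays. With the MAX vector, 25 of the 26 had a lower mean signal than with the empty vector, against 53.5% of all genes tested, and Fen1 was the exception. The median log2 fold change was -0.40 for the 12 mitosis genes (0.757 times the empty vector level), -0.23 for the 14 replication genes (0.851 times), and -0.02 for all 25356 genes tested. None of the members passed on its own: in limma, 0 of 26 had an adjusted p at or under 0.05, where 0.840% of all genes did (0.264% of all genes passed and were lower). At an unadjusted p under 0.05, 10 of 12 mitosis genes and 3 of 14 replication genes were lower and 0 members were higher, whereas 8.21% of all genes were lower and 7.93% higher by that measure (7.72% were lower among genes well above background on every array, as the members are). Both MAX vector arrays lay below both empty vector arrays for 11 of 12 mitosis genes and 10 of 14 replication genes, and for 26.0% of all genes. Among the replication genes counted, the gap was only 0.01 for Rfc2, 0.02 for Cdc25a and 0.06 for Orc6. Both MAX vector arrays lay above both empty vector arrays for 1 member, Fen1, and for 24.2% of all genes. These shares describe genes measured on the same 4 arrays, which are not independent. In RNA of whole cultures, fewer cells in a cycle phase and less RNA per cell cannot be told apart.

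**Figure D1:**
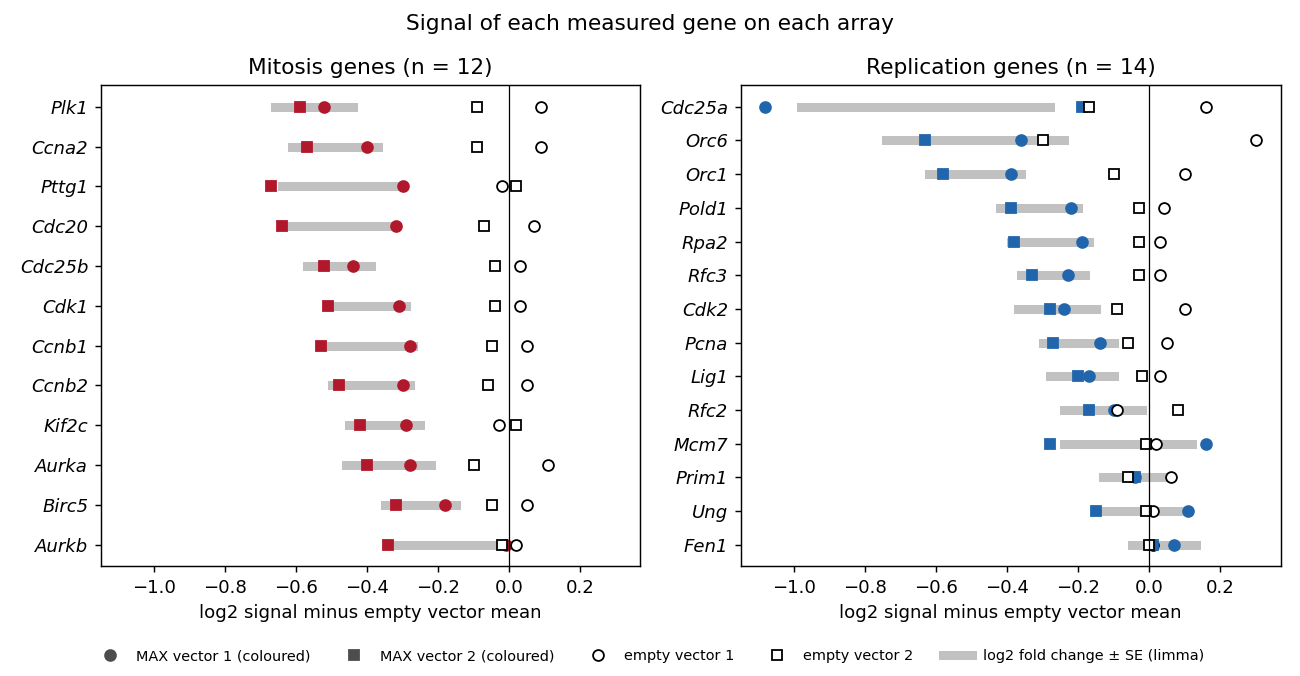
Log2 signal of each measured gene on each array, minus the mean of the 2 empty vector arrays, with mitosis genes on the left and replication genes on the right. Filled symbols are MAX vector arrays, open symbols empty vector arrays, and grey bars the log2 fold change ± SE. The filled symbols lie left of both open ones for 11 of 12 mitosis genes and for 10 of 14 replication genes.

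Among the mitotic cyclins, Cdk1 and its phosphatases, all 5 measured genes had log2 fold changes between -0.49 and -0.39. Cdk1, the kinase that drives entry into mitosis, had 6.45 and 6.25 on the MAX vector arrays, against 6.79 and 6.72 on the empty vector arrays. Its log2 fold change was -0.40 ± 0.11 (SE, n = 2 arrays per group, adjusted p = 0.239 in limma), and the groups did not overlap. Ccna2, which encodes cyclin A2 of S phase and early mitosis, had 2.92 and 2.75 with MAX, against 3.41 and 3.23 with the empty vector (-0.49 ± 0.12, adjusted p = 0.21). Its other, dimmer probe gave -0.68, the same direction. Ccnb1, which encodes cyclin B1, had 2.99 and 2.74 with MAX, against 3.32 and 3.22 with the empty vector, and its 2 probes gave -0.40 and -0.41. Ccnb2, which encodes cyclin B2, had 2.90 and 2.72 with MAX, against 3.25 and 3.14 with the empty vector (-0.39 ± 0.11). For all 3 cyclins the lower empty vector array stayed above the higher MAX vector array. Cdc25b, a phosphatase that activates Cdk1, had 0.75 and 0.67 with MAX, against 1.22 and 1.15 with the empty vector. At -0.48 ± 0.09 it had the smallest unadjusted p of all members (0.00679, adjusted p = 0.144 in limma), and the gap of 0.40 between the groups was larger than the differences between replicates, -0.08 with MAX and -0.07 with the empty vector (replicate 2 minus replicate 1).

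Of the Polo and Aurora kinases and their partners, Plk1, which acts in spindle assembly and exit from mitosis, had the lowest log2 fold change among the mitosis genes. Its signals were 4.71 and 4.64 with MAX, against 5.32 and 5.14 with the empty vector. That is 0.683 times the empty vector level (-0.55 ± 0.11, 95% interval -0.86 to -0.25, adjusted p = 0.152 in limma), and its second probe gave -0.46. Aurka, which encodes the centrosomal kinase Aurora A, had 1.55 and 1.43 with MAX, against 1.94 and 1.73 with the empty vector (-0.34 ± 0.12). Birc5, which encodes survivin of the chromosomal passenger complex, had 3.58 and 3.44 with MAX, against 3.81 and 3.71 with the empty vector (-0.25 ± 0.10). Aurkb, the kinase of the same complex, was the 1 mitosis gene whose groups overlapped. It had 0.67 and 0.34 with MAX, against 0.70 and 0.66 with the empty vector, so its value of -0.18 ± 0.14 (95% interval -0.58 to 0.22) rests on the second MAX vector array.

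Both measured genes of the spindle checkpoint and anaphase were lower on both MAX vector arrays. Cdc20, the activator of the anaphase promoting complex, had 3.74 and 3.42 with MAX, against 4.13 and 3.99 with the empty vector (-0.48 ± 0.15, adjusted p = 0.268 in limma). Pttg1, which encodes securin, the protein degraded when sister chromatids part, had 5.60 and 5.23 with MAX, against 5.88 and 5.92 with the empty vector (-0.48 ± 0.16). For both genes the MAX vector arrays lay further apart than the empty vector arrays, though below them. Kif2c, which encodes a microtubule-depolymerising kinesin of the centromere, had 0.03 and -0.10 with MAX, against 0.29 and 0.34 with the empty vector (-0.35 ± 0.10). It was the 1 measured gene of 7 listed for kinetochores, spindle motors and cytokinesis.

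The replication genes were more mixed. Orc1, the largest subunit of the origin recognition complex, had 0.92 and 0.73 with MAX, against 1.41 and 1.21 with the empty vector. Its log2 fold change of -0.49 ± 0.13 (adjusted p = 0.226 in limma) was as low as those of the mitosis genes, and the groups did not overlap. Orc6, another subunit, had the same log2 fold change with a wider error (-0.49 ± 0.25). Its signals were -0.74 and -1.01 with MAX, against -0.08 and -0.68 with the empty vector, so the empty vector arrays differed from each other by more than the gap between the groups. Mcm7, a subunit of the replicative helicase, had 2.18 and 1.74 with MAX, against 2.04 and 2.01 with the empty vector. The MAX vector arrays lay on both sides of the empty vector arrays, and the log2 fold change was -0.06 ± 0.18 (95% interval -0.55 to 0.43).

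Of the genes that trigger S phase, Cdc25a, a phosphatase that activates Cdk2, had the lowest value of all members, but an imprecise one. It was dim, with -3.65 and -2.76 with MAX, against -2.41 and -2.74 with the empty vector (-0.63 ± 0.35, 95% interval -1.60 to 0.34). The low value comes from the first MAX vector array, and without that array the log2 fold change was -0.19. Cdk2 had 1.42 and 1.38 with MAX, against 1.76 and 1.57 with the empty vector (-0.26 ± 0.11), and its second probe gave -0.40.

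The 8 measured genes of the clamp, the clamp loader, the polymerases and strand joining had a median log2 fold change of -0.20, with a range of -0.31 to 0.04. Pold1, the catalytic subunit of polymerase delta, had 3.08 and 2.91 with MAX, against 3.34 and 3.27 with the empty vector (-0.31 ± 0.11, adjusted p = 0.292 in limma). Rfc3, a subunit of the clamp loader, had 3.48 and 3.38 with MAX, against 3.74 and 3.68 with the empty vector (-0.27 ± 0.09). Rpa2, which encodes a subunit of the single-strand binding protein RPA, had 3.57 and 3.38 with MAX, against 3.79 and 3.73 with the empty vector (-0.28 ± 0.11). These 3 genes were lower on both MAX vector arrays, by less than most mitosis genes. Pcna, the sliding clamp, had 4.16 and 4.03 with MAX, against 4.35 and 4.24 with the empty vector, and its 2 probes gave -0.20 and -0.29. Lig1, the ligase that joins Okazaki fragments, had -0.19 ± 0.09 and Rfc2, another clamp loader subunit, -0.13 ± 0.11.

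At the other end were 3 replication genes whose groups overlapped or, for Fen1, all but touched. Fen1, the nuclease that trims Okazaki fragments, had 5.32 and 5.26 with MAX, against 5.26 and 5.25 with the empty vector (0.04 ± 0.09, 95% interval -0.20 to 0.28). Its dimmer probe gave -0.15, so its probes disagree in sign. Prim1, the catalytic primase subunit, had 4.01 on both MAX vector arrays, against 4.11 and 3.99 with the empty vector (-0.04 ± 0.09), and its second probe gave 0.02. Ung, the uracil glycosylase that repairs newly copied DNA, had 1.92 and 1.66 with MAX, against 1.82 and 1.80 with the empty vector (-0.02 ± 0.12, 95% interval -0.37 to 0.33). The 2 genes with an E-box in the promoter window, Fen1 and Ung, are both in this last group. Prim1 had no E-box match, nor had Mcm7, whose groups overlapped too (-0.06 ± 0.18). Orc1, among the lowest replication genes, had no promoter in the table and could not be searched. Among tested genes with a promoter in the table, the 480 with an E-box and the 4664 without one both had a median log2 fold change of 0.00.

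The mitosis median minus the replication median was -0.17. Across the 4 pairings of a MAX vector array with an empty vector array, this difference ran from -0.24 to -0.11, so it had the same sign in each. Of the mitosis genes, 11 of 12 lay below the replication median, and 3 of 14 replication genes (Cdc25a, Orc6 and Orc1) lay below the mitosis median. All 12 mitosis genes nevertheless fell within the range of the replication genes. The low end of that range is the imprecise value of Cdc25a (-0.63 ± 0.35), and Plk1 (-0.55) lay below every other replication gene. The difference between both groups of genes was not tested. Within the mitosis genes, the 7 with a CHR match had a median log2 fold change of -0.48 and the 3 without one -0.35. The replication genes had the opposite order, -0.06 for the 3 with a CHR match and -0.23 for the 10 without one. Over all tested genes with a promoter entry the medians were -0.05 with a CHR match and 0 without.

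**Figure D2:**
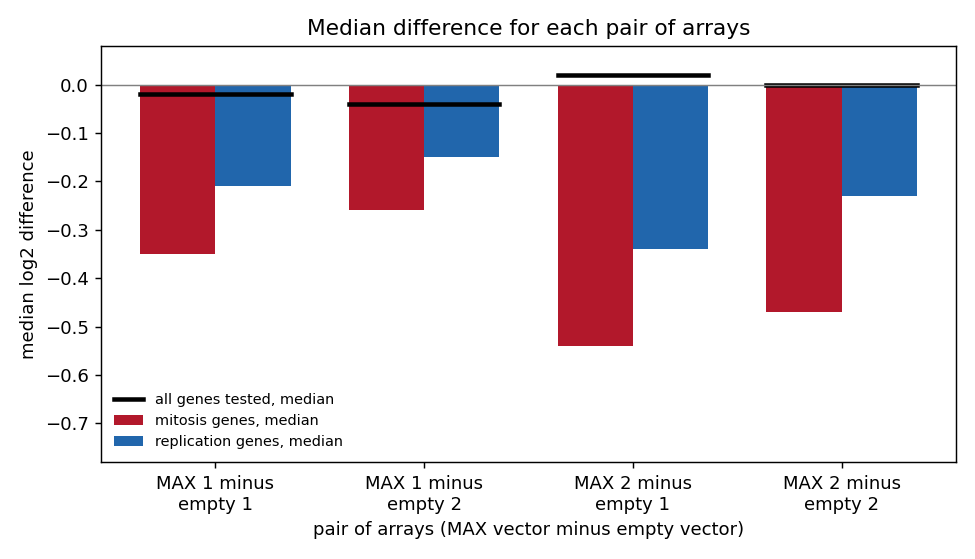
Median log2 difference of the mitosis genes (red bars) and of the replication genes (blue bars) for each pair of a MAX vector and an empty vector array, with the median of all genes tested as a black line. The mitosis medians run from -0.54 to -0.26, the replication medians from -0.34 to -0.15, and all-gene medians from -0.04 to 0.02.

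The arrays within a group also differed for these genes. With MAX, replicate 2 lay below replicate 1 for 12 of 12 mitosis genes and 12 of 14 replication genes, against 47.9% of all genes, with median differences of -0.18, -0.12 and 0.01. With the empty vector, replicate 2 lay below replicate 1 for 10 of 12 mitosis genes and 13 of 14 replication genes, against 45.5% of all genes, with median differences of -0.10, -0.07 and 0.02. The distance between the groups was larger: relative to the empty vector mean, the mitosis median was -0.30 and -0.51 on the MAX vector arrays, against 0.05 and -0.05 on the empty vector arrays. The replication median was -0.18 and -0.27 on the MAX vector arrays, against 0.03 and -0.03 on the empty vector arrays. MAX vector replicate 1 was on a slide of its own, scanned at another time. On the slide that holds the other 3 arrays, the mitosis and replication medians were -0.51 and -0.27, and 12 of 12 and 13 of 14 genes were below 0.

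**Figure D3:**
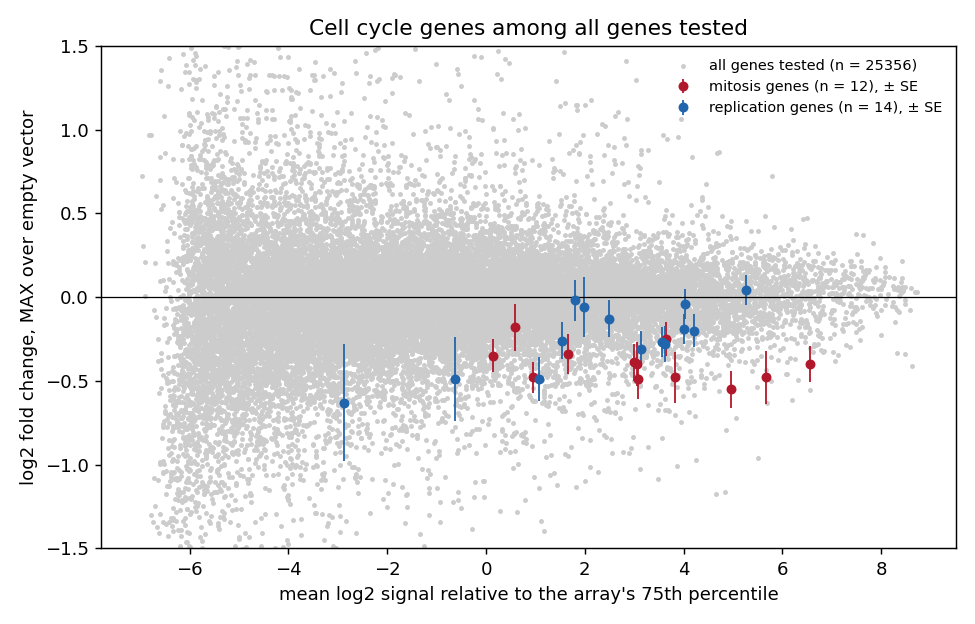
Log2 fold change against the mean log2 signal relative to the 75th percentile, for all 25356 genes tested (grey; 328 lie outside the plotted range), mitosis genes (red) and replication genes (blue), with ± SE for the members. Among genes of high signal the grey cloud is narrow, and most mitosis genes lie at its lower edge, while Fen1, Prim1, Ung and Mcm7 lie near 0.

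Further genes of the same processes were read from the same fit: 44 of 116 listed were measured, 39 of them below 0 (53.5% of all genes tested were), with a median log2 fold change of -0.19. In limma 0 of the 44 passed (0.840% of all genes did), and 9 were lower and 0 higher at an unadjusted p under 0.05, against 8.21% lower and 7.93% higher over all genes. Both MAX vector arrays lay below both empty vector arrays for 29 of the 44, against 26.0% of all genes. By class these were 6 of 6 for DNA precursor synthesis, 5 of 6 for the kinetochore and passenger complex, 5 of 6 for condensin and cohesin, 5 of 7 for checkpoint and recombination, 6 of 13 for other replication factors, 1 of 3 for the anaphase promoting complex and 1 of 3 for the transcription regulators. The 6 kinetochore and passenger complex genes had a median of -0.40, close to that of the mitosis members. Dsn1, a subunit of the MIS12 kinetochore complex, had 0.59 and 0.56 with MAX, against 1.26 and 1.07 with the empty vector (-0.59 ± 0.11, adjusted p = 0.136 in limma). Spc25, a subunit of the NDC80 complex, had -0.41 ± 0.12 (adjusted p = 0.244 in limma). The 6 genes of DNA precursor synthesis had a median of -0.33. The ribonucleotide reductase subunit genes Rrm2 and Rrm1 had -0.68 ± 0.18 and -0.38 ± 0.13. The 13 other replication factors had a median of -0.12. Gins4, a subunit of the helicase activator GINS, had -0.30 ± 0.10, while the origin recognition genes Orc2, Orc3, Orc4 and Orc5 lay between -0.01 and 0.07. The difference between Orc1 and these 4 subunits was not tested. The condensin and cohesin genes had a median of -0.18 (6 genes), with the condensin II subunit gene Ncapg2 at -0.40 ± 0.09. The checkpoint and recombination genes also had a median of -0.18 (7 genes), with the checkpoint kinase gene Chek1 at -0.35 ± 0.09. The 3 measured genes of the anaphase promoting complex had a median of -0.10. Of the 3 transcription regulators of the cycle, Foxm1, an activator of mitosis genes, had 1.86 and 1.88 with MAX, against 2.08 and 2.07 with the empty vector (-0.21 ± 0.08). Rbl2, which encodes the DREAM repressor subunit p130, had 1.77 and 1.95 with MAX, against 1.57 and 1.69 with the empty vector (0.23 ± 0.11, adjusted p = 0.419 in limma). Tfdp1, the E2F partner, had -0.08 ± 0.12.

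Of the chromaffin markers, which define the tissue of origin, 9 of 12 with a named probe were well above background on every array, among them Th and Ddc, while Dbh, Slc18a1 and Scg2 were not. The summed linear level of these 12 markers, in units of the 75th percentile, was 11.69 and 11.59 with MAX, against 20.29 and 20.38 with the empty vector. Ddc, the decarboxylase of dopamine synthesis, carries that difference: it fell to 2.95 and 2.94 on the log2 scale with MAX, against 4.03 and 4.04 with the empty vector (adjusted p = 0.0391 in limma), and without it the sum was 3.94 and 3.91 with MAX, against 3.97 and 3.98 with the empty vector. Th, the rate-limiting enzyme of that pathway, rose to 0.17 and 0.08 with MAX, against -1.94 and -2.10 with the empty vector (adjusted p = 0.0203 in limma). The sum without Ddc thus sets the rise of Th against lower values of other markers. Only Th and Chgb (0.17) had a log2 fold change above 0. Among the markers below 0 were Phox2a (-0.74, adjusted p = 0.0864 in limma) and Hand2 (-0.35, adjusted p = 0.22 in limma). The part of these markers in the cell cycle result was not tested. Fibroblast markers summed to 142.5 and 152.03 with MAX, against 137.83 and 153.09 with the empty vector, nearly all from Col3a1, and Fap was above background on no array. The Schwann, leukocyte and endothelial markers summed to 1.40 or less on each array, and S100b, Aif1 and Pecam1 were above background on none. These sums are set mainly by their brightest probes and include some probes below background. They compare arrays within a marker list and do not measure the share of a cell type.

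**Figure D4:**
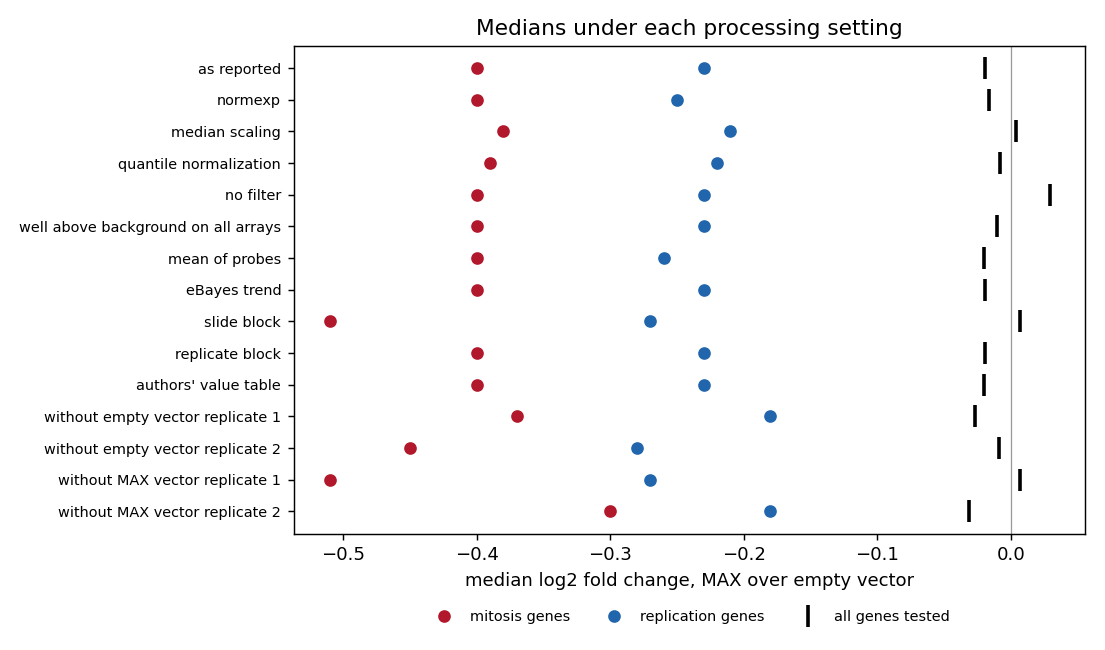
Median log2 fold change of the mitosis genes (red), the replication genes (blue) and all genes tested (black) as reported and under 14 other processing settings, 1 per row. The mitosis median lies between -0.51 and -0.30 and the replication median between -0.28 and -0.18 in every row.

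The order of both medians held under all 14 other settings tried, which the plot of medians by setting shows. These are not 14 separate checks. A variance trend, the replicate block, other filters and the value table left both medians as reported. Median scaling moves all genes of an array alike, and the slide block is the same fit as without MAX vector replicate 1. The count of genes lower at an unadjusted p under 0.05 in limma did depend on scaling and filter. With median scaling it was 3 of 12 mitosis and 1 of 14 replication genes, against 6.50% of all genes. With no filter on dim probes it was 6 of 12 and 1 of 14, against 4.87%. Normexp and quantile scaling kept 10 of 12 mitosis genes, against 7.21% and 8.64%. Calls of single members did depend on the setting. With normexp background correction Plk1 (-0.70, adjusted p = 0.00594), Cdc25b (-0.58, adjusted p = 0.0208) and Orc1 (-0.51, adjusted p = 0.0397) passed in limma, all lower, where 1.52% of all genes were called lower. With a variance trend in limma, Plk1 (adjusted p = 0.0314) and Cdc25b (adjusted p = 0.0394) passed, where 1.62% of all genes were called lower.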

How the data were processed

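Per the file headers, the authors' deposited scanner files hold spot intensity written by Feature Extraction 10.7.3.1 (10.7 in the submitters' processing notes), and name genome build rn4. Background was subtracted from the processed intensity inside each array, without scaling across arrays. A table of log2 values was deposited too, and its differences between arrays matched log2 processed intensity (Pearson r = 1 over probes) up to a constant per array; how each probe was centred stays unknown (column medians -0.033, -0.011, -0.005 and -0.007).

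Control spots and spots with an outlier flag (89 to 140 per array) were left out. Replicate spots were averaged per probe on the log2 scale, and the 75th percentile over probes (590.0 to 700.5 signal units) was then subtracted per array. The share of probes well above background was 64.5% to 71.6%, 0 spots were saturated, and arrays correlated at 0.9839 to 0.9905 across probes. The number of arrays limits the precision. Genes with a probe well above background on at least 2 arrays were tested, each by its brightest probe (25356 genes, 6311 of them with a symbol). RefSeq accessions were matched without versions to the RefSeq table of assembly GRCr8, which named 26.2% of probes. MAX vector was compared with empty vector in limma 3.58.1 (R 4.3.3; lmFit and eBayes, 3.94 degrees of freedom), adjusted over all genes with Benjamini-Hochberg, threshold 0.05; the steps were tested on simulated data. No label states that replicate numbers pair the samples, so they were not used as a block. Members and lists were chosen with earlier results of these data known. Values per array are given for the 6 lowest and 3 highest members of each group of genes, landmark genes and members called in any setting; other members are named too, and of other genes those with the smallest p per class. The alternatives were normexp (offset 50; on median spot signals, as the files hold no mean signal), median and quantile scaling, other filters and probe rules, a variance trend, slide and replicate blocks, the value table, and leaving out each array.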

Additional observations from a re-analysis of the deposited data

How the results depend on the processing

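As reported, 213 genes passed over all genes and 0 members did. Over all genes, 808 passed with normexp, 541 with median scaling, 515 with the filter for signal on all arrays, 955 with a variance trend, 8 with the slide as a block, 0 with no filter on dim probes and 0 with the replicate number as a block; with 1 array left out the count ran from 0 to 144. Unadjusted p-values under 0.05 numbered 4033 with no filter and 3885 with the replicate block. Members called numbered 3 with normexp, 2 with a variance trend and 0 in the other 12 settings. With 1 array left out, the mitosis median ran from -0.51 to -0.30, the replication median from -0.28 to -0.18, and their difference from -0.24 to -0.12; with the slide as a block, the same fit as without MAX vector replicate 1, the difference was -0.24. Without MAX vector replicate 2 the mitosis median was -0.30, and 2 of 12 mitosis genes were lower at an unadjusted p under 0.05, close to the 14.8% of all genes in that setting (10 of 12 against 8.21% as reported). Without empty vector replicate 1 this was 1 of 12 against 3.92%, without empty vector replicate 2 it was 3 of 12 against 4.38%, and without MAX vector replicate 1 it was 10 of 12 against 6.93%. Same-numbered samples did not deviate together over all genes (r = -0.018), but among the members replicate 2 lay below replicate 1 for 24 of 26 with MAX and 23 of 26 with the empty vector, so pairing by passage is possible for these genes and was not settled. With the replicate block, the medians were -0.40 and -0.23, and 10 mitosis and 3 replication genes were lower at an unadjusted p under 0.05, as without it.

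Of 364 values of single members under the alternatives, 353 kept their direction and side of the threshold. That count includes settings, such as a variance trend and the replicate block, that cannot change a direction. Signs turned only for members near 0: Fen1 was -0.03 with normexp and -0.06 with the mean of its probes, and Ung 0.00 with median scaling. With 1 array left out, Ung ran from -0.15 to 0.11 and Mcm7 from -0.28 to 0.15, both highest without MAX vector replicate 2, and Prim1 from -0.10 to 0.02, highest without empty vector replicate 1. The cause was not tested. In all settings 12 of 12 mitosis genes and 10 of 14 replication genes were below 0. Cdc25a, the dimmest member, was -0.63 as reported, -0.19 without MAX vector replicate 1 and -1.07 without MAX vector replicate 2.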
